A study of Mus musculus with 8 samples.

Results

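The complement genes described here, 9 in number, were chosen by name: C1qa, C1qb, C1qc, C2, C3, Cfb, Serping1, Cfi and Cd55. Their probe sets were found by gene symbol in the platform annotation of the array. It held 14 probe sets for 8 of the 9 genes, out of 45037 probe sets tested and 18193 named genes in all. C3 was not analysed here. The samples were retinas of mice at postnatal day 40, of the strain labelled BALB/c AJ, dissected free of the retinal pigment epithelium (RPE). Total RNA from each was measured on 1 Affymetrix 3' expression array. By their labels 3 arrays were wild type (wt/wt), 2 were heterozygous for an Nxnl1 null allele (ko/wt) and 3 were homozygous null (ko/ko). Nxnl1 is a photoreceptor gene that encodes rod-derived cone viability factor. How the null allele was made, and whether each array stands for its own animal or for pooled animals, is not given in the sources used here. The p-values therefore measure only the spread between these arrays, which may be technical. The submitters' design mentions 9 samples, of which 8 were analysed here.

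Complement is a cascade of blood and tissue proteins that tags targets for removal. The classical pathway starts when C1q, built from A, B and C chains, binds a target and activates the proteases C1r and C1s. These cleave C4 and C2 to form an enzyme that splits C3, the central component, and factor B (Cfb) forms the matching enzyme of the alternative pathway. Serping1, the C1 inhibitor, blocks C1r and C1s, factor I (Cfi) cuts activated C3 and C4 fragments, and Cd55 takes the C3-splitting enzymes apart on the cell surface. In neural tissue, retina included, C1q is known to be made largely by microglia and to take part in synapse removal.

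Expression values and differences are log2 values as deposited, so a difference of 1 is a doubling. They ran from 2.5 to 14.57, with array medians from 6.11 to 6.21. Rod genes were high on all 8 arrays: the mean of Gnat1, Pde6b, Nrl, Sag and Rcvrn ran from 13.88 to 14.01. Nxnl1 itself went against 2 labels. Its brighter probe set, 1425696_at, read 9.22, 8.87 and 8.65 on the wild-type arrays, against 8.65 and 6.75 with the heterozygous label and 6.13, 8.76 and 6.13 with the homozygous label. Here and throughout, arrays of a group are given in the order of their replicate numbers. Homozygous array 2 thus had as much Nxnl1 signal as wild type, and heterozygous array 2 far less than heterozygous array 1, and every genotype difference below pools such arrays. Results are given with and without those 2 arrays.

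Homozygous null against wild-type retinas addresses the loss of Nxnl1. Of the complement genes, Serping1 had the largest difference at the brightest probe set of a gene, with a homozygous mean 0.76 above the wild-type mean. Of the C1q chains, C1qc was 0.46 and C1qa 0.32 above wild type, each with wide overlap between groups, while C1qb was at -0.043. C2, Cfb, Cfi and Cd55 also lay within 0.17 of 0 at their brightest probe sets. After Benjamini-Hochberg adjustment over all 45037 probe sets, 0 of the 14 passed the limma test (adjusted p 0.9999 for each), and 0% of all did. At an unadjusted limma p under 0.05 it was 1 of the 14, Serping1, beside 0.913% of all probe sets. All 3 homozygous arrays lay above all 3 wild-type arrays at 1 of the 14, again Serping1, beside 2.63% of all probe sets, and below them at 0 of the 14, beside 1.84%. The difference was above 0 at 9 of the 14, beside 52.1% of all.

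**Figure D1:**
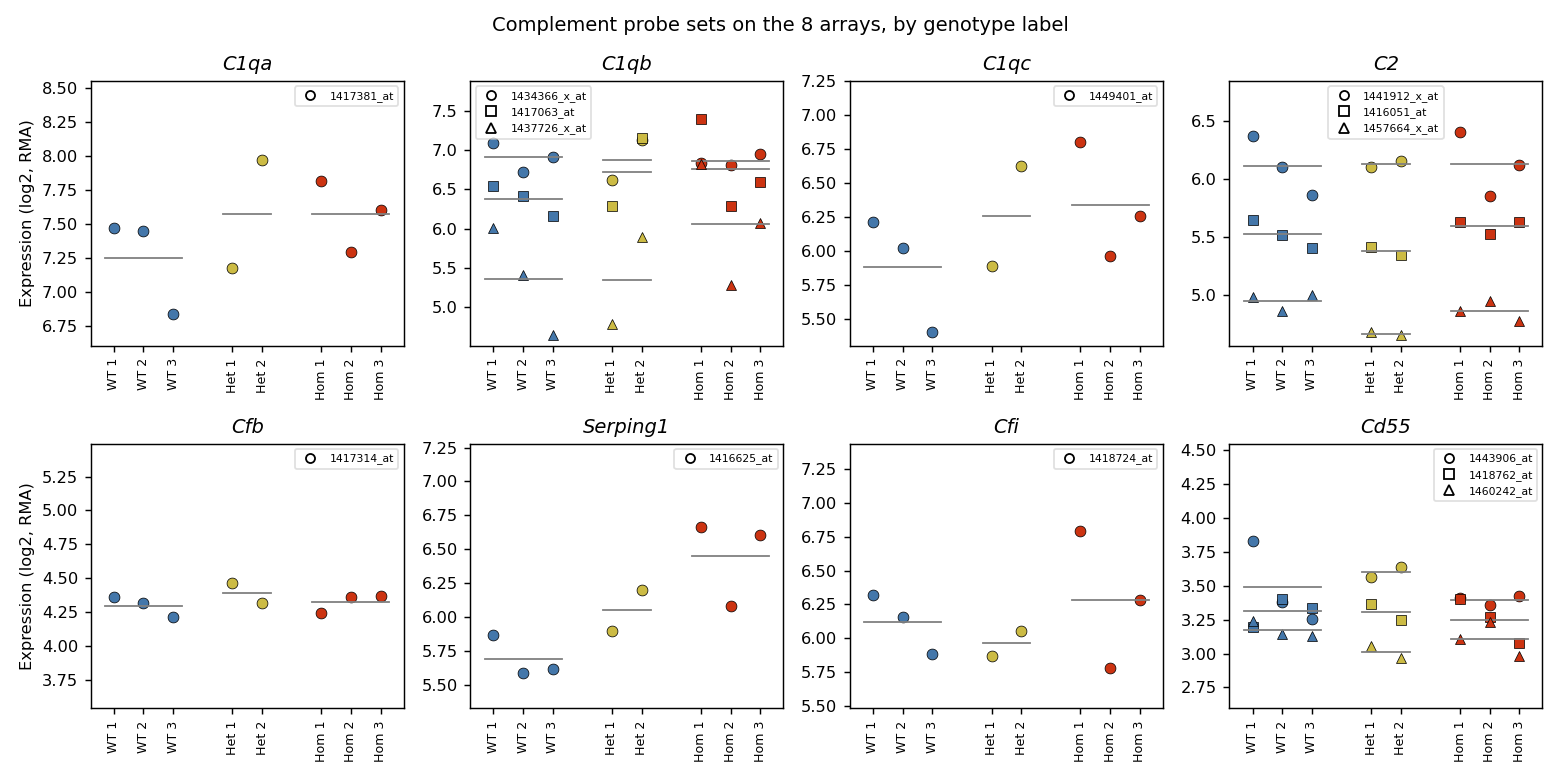
Log2 expression of the 14 probe sets of 8 complement genes on each array, with arrays on the horizontal axis in the groups wild type (WT), heterozygous (Het) and homozygous (Hom) by label. Points are single arrays, marker shapes are probe sets, and grey lines are group means. Every homozygous array lies above every wild-type array for Serping1, while these groups overlap at every other probe set shown.

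The 3 C1q genes lie next to each other on chromosome 4 in the mouse annotation GRCm38, with no other gene starting between them. The promoter windows of C1qb and C1qc are shown because C1qc varied over the arrays with C1qb at 1417063_at, though not at the brightest C1qb probe set. They come from RefSeq (build GRCm38.p6), run from 250 bases before the gene start to 50 bases after it, and are written on the gene's own strand. C1qb lies at chr4:136886151-136886450 and C1qc at chr4:136892865-136893164, both on the minus strand. Capitals mark the letters GAGGAA or their reverse complement, the core recognised by PU.1, a transcription factor of the macrophage lineage.
C1qb: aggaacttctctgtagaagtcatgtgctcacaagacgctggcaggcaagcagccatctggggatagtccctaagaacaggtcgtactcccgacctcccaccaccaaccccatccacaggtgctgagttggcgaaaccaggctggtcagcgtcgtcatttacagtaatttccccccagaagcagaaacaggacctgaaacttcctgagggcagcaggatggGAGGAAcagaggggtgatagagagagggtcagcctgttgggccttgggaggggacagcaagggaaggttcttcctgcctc
C1qc: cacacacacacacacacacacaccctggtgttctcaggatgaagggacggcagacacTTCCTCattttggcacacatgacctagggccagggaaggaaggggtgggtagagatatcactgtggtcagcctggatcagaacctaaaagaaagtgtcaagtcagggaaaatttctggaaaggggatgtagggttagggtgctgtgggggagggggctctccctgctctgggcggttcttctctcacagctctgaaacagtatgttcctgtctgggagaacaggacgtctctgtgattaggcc
Each of these windows held 1 such match. In C1qb it began 30 bases before the gene start on the gene's strand, and in C1qc 193 bases before it on the opposite strand. The same letters stood in 28.3% of all 32851 promoter windows of 300 bases, so a match is common. On both strands, neither window held the TATA box letters TATAAA, found in 13.6% of all windows.

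C1qa, which encodes the A chain of C1q, read 7.47, 7.45 and 6.84 on wild-type arrays 1, 2 and 3 (probe set 1417381_at). With the heterozygous label it was 7.17 and 7.97, and with the homozygous label 7.82, 7.29 and 7.61. The highest arrays were thus heterozygous 2 and homozygous 1 and 3, which are the 3 arrays lowest in Nxnl1, and homozygous 2 lay between the wild-type arrays. Group means were 7.25 ± 0.36 (SD, n = 3) in wild type, 7.57 ± 0.56 (SD, n = 2) in the heterozygous group and 7.57 ± 0.27 (SD, n = 3) in the homozygous group. The difference of homozygous from wild type was 0.32 (SE 0.25, unadjusted limma p 0.237), a 1.25-fold ratio with a 95% interval from 0.836 to 1.87. Without wild-type array 3, the lowest, it was 0.12, and without homozygous array 1 it was 0.20.

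C1qc, the gene of the C chain, had the same 3 arrays at the top and wild-type array 3 at the bottom (probe set 1449401_at). It read 6.22, 6.02 and 5.40 on the wild-type arrays, against 5.89 and 6.62 with the heterozygous label and 6.80, 5.96 and 6.26 with the homozygous label. The groups overlapped, since homozygous array 2 lay below wild-type arrays 1 and 2. The difference of homozygous from wild type was 0.46 (SE 0.29, unadjusted limma p 0.152), a 1.38-fold ratio with a 95% interval from 0.864 to 2.20. It was 0.23 without homozygous array 1 and 0.22 without wild-type array 3.

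C1qb, the gene of the B chain, was measured by 3 probe sets that disagreed. Probe set 1417063_at read 6.54, 6.42 and 6.16 on the wild-type arrays, against 6.28 and 7.15 with the heterozygous label and 7.39, 6.29 and 6.59 with the homozygous label. Probe set 1437726_x_at had the widest spread, with 6.01, 5.40 and 4.65 on the wild-type arrays, against 4.79 and 5.89 with the heterozygous label and 6.82, 5.28 and 6.07 with the homozygous label. Homozygous array 1 was the highest at both. Their differences of homozygous from wild type were 0.38 (SE 0.31) and 0.70 (SE 0.47), with unadjusted limma p values of 0.247 and 0.177. Both rested on single arrays: without homozygous array 1 they were 0.066 and 0.32, and without wild-type array 3 the second was 0.35. The brightest probe set, 1434366_x_at, read between 6.72 and 7.09 in wild type and between 6.80 and 6.95 in the homozygous group, a difference of -0.043 (SE 0.15). The suffix _x_at marks probe sets whose probes can also bind other transcripts, so the values of these 2 are uncertain.

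Over the 8 arrays the A, B and C chain genes varied together at all but 1 of their probe sets. C1qa and C1qc correlated with Pearson r = 0.964 (exact permutation p = 0.000347, adjusted 0.00122 over the 7 relations computed between chains) and Spearman rho = 0.976 (exact permutation p = 0.000397, adjusted 0.000926). Without the 2 arrays farthest from the median of C1qa, heterozygous 2 and wild type 3, r was 0.941. C1qb at 1417063_at correlated with C1qc at r = 0.936 (exact permutation p = 2.48e-05, adjusted 0.000174) and rho = 1 (exact permutation p = 4.96e-05, adjusted 0.000347), and r was 0.921 without heterozygous array 2 and homozygous array 1. The relation did not hold for the brightest C1qb probe set, 1434366_x_at, which had r = 0.355 with C1qc (exact permutation p = 0.394, adjusted 0.394; rho = 0.5, exact permutation p = 0.216, adjusted 0.216) and r = 0.0259 without the heterozygous arrays. Groups of 2 or 3 arrays are too small for a correlation within a genotype. Values of this size were not particular to the C1q chains. Among 10623 genes searched, the histone variant gene Macroh2a2 had r = 0.979 with C1qa and 0.983 with C1qc.

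**Figure D2:**
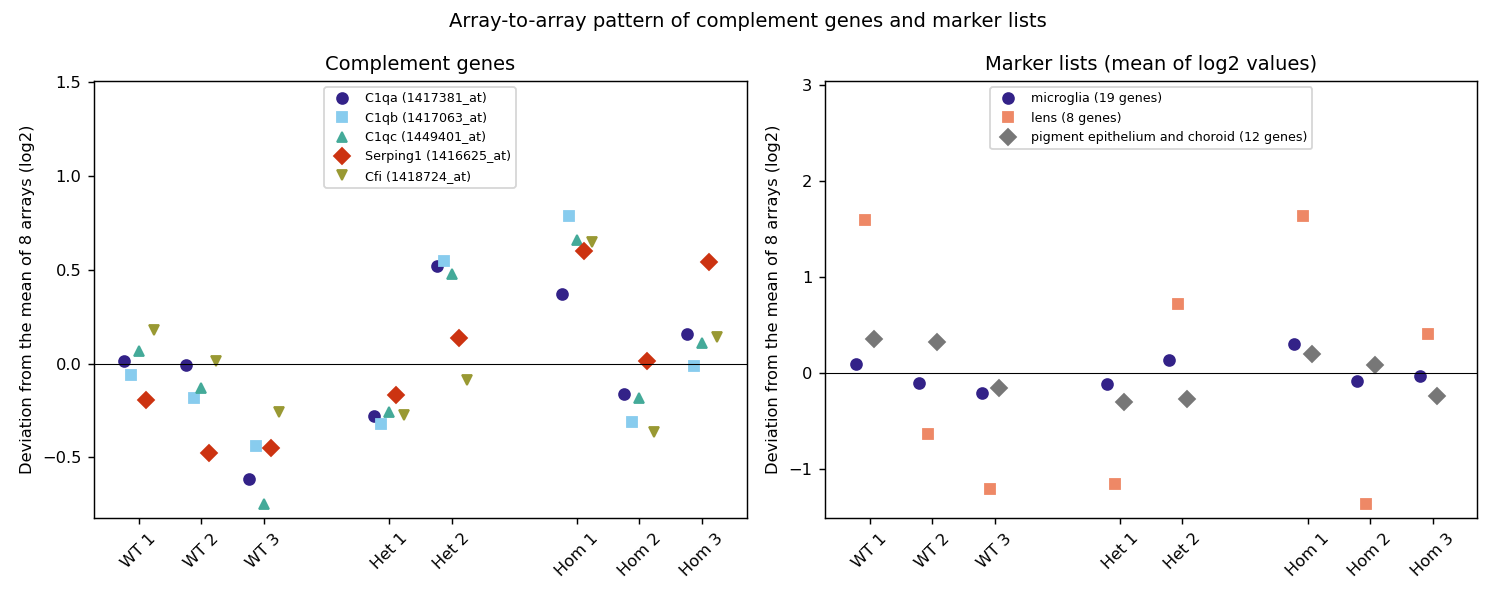
Deviation of each array from the mean of the 8 arrays (log2) for 5 complement genes on the left and for the mean level of 3 marker lists (microglia, lens, and pigment epithelium and choroid) on the right, which has a wider axis. Points are single arrays by genotype label; C1qa, C1qc and C1qb at 1417063_at (which is not its brightest probe set) are highest on Het 2 and Hom 1 and the lens markers on WT 1, Hom 1 and Het 2.

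Markers of microglia, the cells known to make C1q, are given beside these values. Of 19 measured microglial genes, 17 had a higher mean in the homozygous group than in wild type, against 60.5% of all 18193 genes, and their median difference was 0.13 against 0.024. None passed the limma test over all probe sets, and 1, the lysozyme Lyz2 at 0.27 (SE 0.10), had an unadjusted p under 0.05, beside 0.841% of all genes. The mean level of the list ran from 5.78 to 6.08 in wild type, from 5.87 to 6.12 in the heterozygous group and from 5.90 to 6.29 in the homozygous group. Its highest arrays were homozygous 1, heterozygous 2 and wild type 1. Ly86, which encodes MD-1, read 7.06, 6.60 and 6.04 on the wild-type arrays, against 6.46 and 7.19 with the heterozygous label and 7.73, 6.65 and 7.05 with the homozygous label. The part of microglial content in the C1q values was not tested, and in bulk tissue more cells of a type and more RNA per cell cannot be told apart.

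Lens transcripts, which a retina dissection can carry along, were also uneven between arrays. The mean of 8 lens markers was 7.73, 5.50 and 4.93 on the wild-type arrays, against 4.99 and 6.86 with the heterozygous label and 7.78, 4.78 and 6.54 with the homozygous label. The 3 arrays highest in C1qa were among the 4 highest in lens markers, together with wild type 1. Of 9 listed blood markers, 5 had a probe set with a single gene symbol. Their mean was low throughout, between 3.98 and 4.25, and the haemoglobin gene Hba-a1 read at most 3.97. Probe sets shared by several genes were not read here, so the blood content of the retinas was not tested. Pigment epithelium and choroid markers ran from 7.79 to 8.30 in wild type and from 7.71 to 8.14 in the homozygous group, with 3 of 12 genes above 0. On the heterozygous arrays they stood at 7.65 and 7.68, lower than any wild-type array. Müller glia and astrocyte markers had 5 of 11 genes above 0. Over all genes, 60.5% were above 0. The part of these tissues in the complement values was not tested.

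Vessel markers had 11 of 13 genes above 0 in the homozygous group, beside 60.5% of all genes, with a median difference of 0.11 beside 0.024. Their mean level ran from 6.51 to 6.54 in wild type, was 6.66 and 6.54 with the heterozygous label and ran from 6.56 to 6.90 in the homozygous group, above every wild-type array. After adjustment 0 of the 13 passed the limma test, and 1 had an unadjusted p under 0.05, beside 0.841% of all genes. That was Tie1, an endothelial receptor kinase, at 0.58 (SE 0.17, unadjusted limma p 0.00813). It read 3.68, 3.69 and 3.57 on the wild-type arrays, against 3.71 and 3.67 with the heterozygous label and 4.64, 4.05 and 3.99 with the homozygous label. These readings were well below the array medians of 6.11 to 6.21. Whether a change in Tie1 can be measured at such low levels was not tested. All homozygous arrays lay above wild type at Tie1 and at Emcn, which encodes the endothelial surface protein endomucin (0.19, SE 0.11), or 2 of the 13, beside 3.25% of all genes. The part of vessel content in the complement values, Serping1 included, was not tested.

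C2, the protease of the classical C3-splitting enzyme, was measured by 3 probe sets. Its brightest, 1441912_x_at, read 6.38, 6.10 and 5.86 on the wild-type arrays, against 6.10 and 6.16 with the heterozygous label and 6.41, 5.85 and 6.12 with the homozygous label. The groups overlapped fully, with a difference of homozygous from wild type of 0.013 (SE 0.17) and a 95% interval for the ratio from 0.768 to 1.33. The others, 1416051_at and 1457664_x_at, differed by 0.074 (SE 0.10) and -0.087 (SE 0.09). As for C1qb, the values of the C2 probe sets with the suffix _x_at are uncertain. Cfb, the protease of the alternative pathway, lies close to C2 on chromosome 17, with 1 microRNA gene starting between them. Its single probe set, 1417314_at, ran from 4.22 to 4.47 over the 8 arrays. The difference was 0.025 (SE 0.09), and the 95% interval of the ratio ran from 0.878 to 1.18. Its readings lay well below the array medians of 6.11 to 6.21, and whether a change can be measured at such levels was not tested.

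Serping1, the C1 inhibitor, was the only gene of the 8 whose homozygous arrays all lay above the wild-type arrays at its brightest probe set. Over all genes the share was 3.25%. Probe set 1416625_at read 5.87, 5.59 and 5.62 on wild-type arrays 1, 2 and 3, below the array medians of 6.11 to 6.21. With the heterozygous label it was 5.90 and 6.20, and with the homozygous label 6.67, 6.08 and 6.61. Of the mutant-labelled arrays, heterozygous array 1 came closest to wild type, at 5.90 against 5.87 on wild-type array 1. The 3 arrays lowest in Nxnl1 were the 3 highest in Serping1, and homozygous array 2, with Nxnl1 at the wild-type level, came next. How common this order is over all probe sets was not counted. Lens markers were also high on heterozygous array 2 (6.86) and homozygous arrays 1 and 3 (7.78 and 6.54), as on wild-type array 1 (7.73). Group means were 5.69 ± 0.15 (SD, n = 3), 6.05 ± 0.21 (SD, n = 2) and 6.45 ± 0.32 (SD, n = 3) in wild-type, heterozygous and homozygous arrays. The difference of homozygous from wild type was 0.76 (SE 0.17, unadjusted limma p 0.00223, adjusted p 0.9999), a 1.69-fold ratio with a 95% interval from 1.28 to 2.23. The two-sided exact permutation p was 0.1, the smallest that 3 arrays against 3 allow.

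Serping1 stood 0.94 above wild type once the arrays labelled heterozygous 2 and homozygous 2 were left out (SE 0.13; limma p 0.00034 unadjusted and 0.976 adjusted). With any 1 array left out it stayed between 0.65 and 0.94. Over the alternative fits that gave Serping1 a value, its adjusted p ran from 0.284 to 1, so none of them called it. As for RNA quality, described with Cfi below, the difference was 0.75 with the actin 5' minus 3' difference as a covariate. It was 0.74 without wild-type array 1 and homozygous array 1, the arrays with the lowest actin difference. The actin difference was on average nearly the same in wild-type and homozygous arrays, so the covariate could hardly move this comparison. With the covariate, heterozygous minus wild type went from 0.36 to 0.52, and homozygous minus heterozygous from 0.40 to 0.24. The part of RNA quality in the Serping1 values was not tested.

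Cfi, the protease that cuts activated C3 and C4 fragments, overlapped fully between groups. Probe set 1418724_at read 6.32, 6.16 and 5.88 on the wild-type arrays, against 5.87 and 6.06 with the heterozygous label and 6.79, 5.78 and 6.28 with the homozygous label. Homozygous array 1 was the highest of the 8 and homozygous array 2 the lowest. The difference of homozygous from wild type was 0.16 (SE 0.24, limma p 0.511 unadjusted), or -0.089 without homozygous array 1. A measure of RNA integrity, the actin control signal at the 5' end minus that at the 3' end (lower in degraded RNA), stood at -1.81, -1.04 and -0.80 on the wild-type arrays, against -0.90 and -0.71 with the heterozygous label and -1.74, -0.69 and -1.26 with the homozygous label. Over the 8 arrays Cfi correlated with it at Pearson r = -0.856 (exact permutation p = 0.0034, adjusted 0.0476 over the 14 relations computed, 1 per probe set) and Spearman rho = -0.881 (exact permutation p = 0.00724, adjusted 0.101). Without wild-type array 1 and homozygous array 1, r was -0.801. The part of RNA quality in the Cfi values was not tested.

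The brightest C2 probe set had r = -0.856 with the actin difference as well (exact permutation p = 0.0117, adjusted 0.0615; rho = -0.738, exact permutation p = 0.0458, adjusted 0.214), and -0.472 without the same 2 arrays. Serping1 had r = -0.368 (exact permutation p = 0.366, adjusted 0.641; rho = -0.0952, exact permutation p = 0.84, adjusted 0.977) and -0.341 without them. The C2 probe set 1416051_at had r = -0.829 (exact permutation p = 0.0132, adjusted 0.0615; rho = -0.738, exact permutation p = 0.0458, adjusted 0.214) and -0.735 without them. C1qb at 1437726_x_at, which had the widest spread of the C1q probe sets, had r = -0.716 (exact permutation p = 0.0497, adjusted 0.174; rho = -0.667, exact permutation p = 0.0831, adjusted 0.291) and -0.391 without them. C1qa had r = -0.331 (exact permutation p = 0.421, adjusted 0.654; rho = -0.31, exact permutation p = 0.462, adjusted 0.808) and -0.115 without them.

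Cd55, the decay-accelerating factor, was dim on all arrays. Its brightest probe set, 1443906_at, read 3.83, 3.38 and 3.26 on the wild-type arrays, against 3.57 and 3.64 with the heterozygous label and 3.41, 3.36 and 3.42 with the homozygous label, and its other probe sets, 1418762_at and 1460242_at, stayed between 2.96 and 3.40. The differences of homozygous from wild type at the 3 were -0.092 (SE 0.15), -0.060 (SE 0.11) and -0.064 (SE 0.10). Whether a change can be measured at such low levels was not tested.

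With the arrays labelled heterozygous 2 and homozygous 2 left out, the C1q chains stood further above wild type. C1qa was then 0.46 (SE 0.22), C1qc 0.65 (SE 0.29) and C1qb 0.61 (SE 0.26) at 1417063_at, with unadjusted limma p values of 0.0821, 0.0639 and 0.0543. The second C1qb probe set, 1437726_x_at, was 1.09 above wild type (SE 0.43, unadjusted limma p 0.0444), and 1434366_x_at stayed at -0.012 (SE 0.14). Both remaining homozygous arrays lay above all wild-type arrays at 5 of the 14 probe sets (Serping1, C1qa, C1qc and these 2 of C1qb), beside 9.29% of all probe sets. Cfi was 0.42 above (SE 0.20, unadjusted limma p 0.0875). The difference was above 0 at 9 of the 14, beside 51% of all. After adjustment 0 of the 14 passed the limma test (smallest adjusted p 0.976), as for 0% of all probe sets, while 2 of them and 2.01% of all had an unadjusted p under 0.05. The 2 arrays were left out for their Nxnl1 level, known from earlier results, so these values are a description of the arrays that remain.

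**Figure D3:**
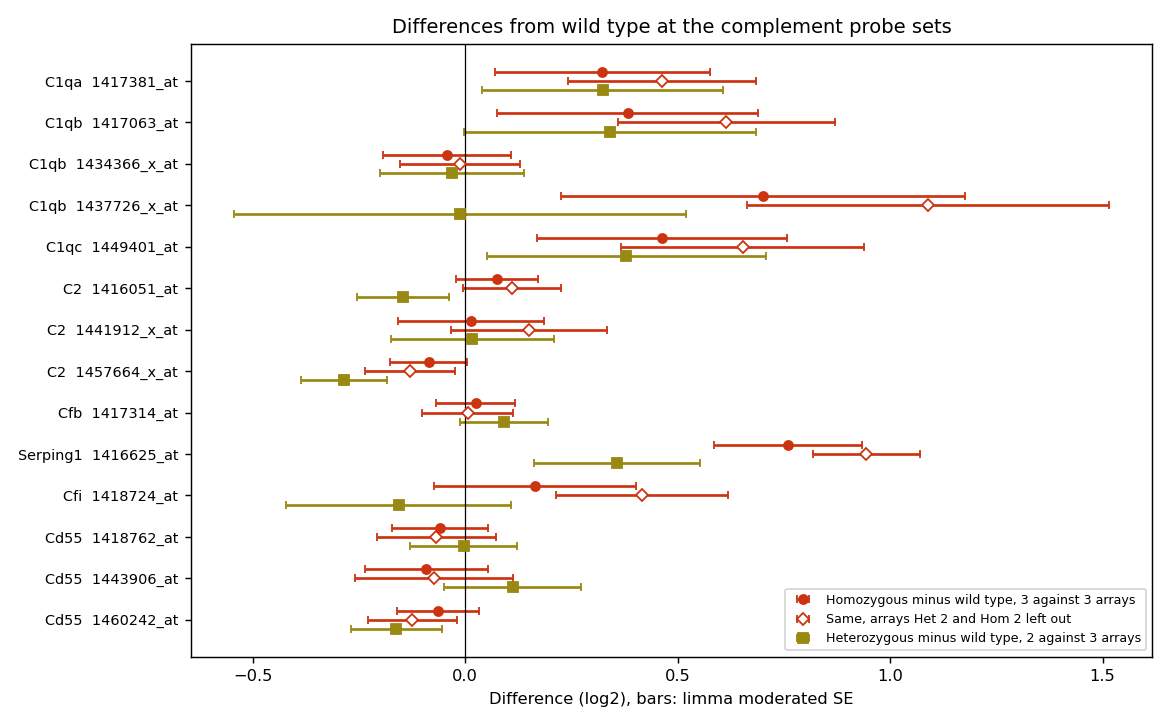
Difference from wild type (log2, horizontal axis) at each of the 14 complement probe sets for the homozygous group with all arrays, the homozygous group without arrays Het 2 and Hom 2, and the heterozygous group. Points are limma estimates and bars their moderated SE; Serping1 is at 0.76, 0.94 and 0.36 in these fits.

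Heterozygous against wild-type retinas addresses the loss of 1 allele. At the brightest probe sets C1qa was 0.32 (SE 0.28), C1qc 0.38 (SE 0.33) and Serping1 0.36 (SE 0.19) above wild type, and Cfi was -0.16 (SE 0.27). The C1q values rested on 1 array: without heterozygous array 2, whose Nxnl1 was low, C1qa was -0.076 and C1qc 0.012, while Serping1 was 0.21. None of the 14 probe sets passed the adjusted limma test (adjusted p 0.9999 for each), as for 0% of all. The only one with an unadjusted p under 0.05, beside 1.15% of all probe sets, was the C2 probe set 1457664_x_at at -0.29 (SE 0.10, unadjusted limma p 0.0217). It was at least 4.86 on every wild-type array and read 4.67 and 4.65 on the heterozygous arrays. The brightest C2 probe set differed by 0.016 (SE 0.19). C2 at 1416051_at, which lacks the suffix _x_at, differed by -0.15 (SE 0.11, unadjusted limma p 0.211). Both heterozygous arrays lay above all wild-type arrays at 1 of the 14, Serping1, beside 7.03% of all probe sets. They lay below them at 2 (C2 at 1457664_x_at and Cd55 at 1460242_at), beside 7.2%. The difference was above 0 at 7 of the 14, beside 50.6% of all. Pigment epithelium and choroid markers differed between the same groups: 2 of 12 genes were above 0, beside 47.6% of all genes, with a median of -0.54. After adjustment 0 of the 12 passed the limma test, and 4 had an unadjusted p under 0.05, beside 1.17% of all genes. Their part in the heterozygous values was not tested.

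Between homozygous and heterozygous arrays none of the 14 passed the adjusted limma test either, as for 0% of all, and 0 of the 14 had an unadjusted p under 0.05, beside 0.899% of all. The difference was above 0 at 8 of the 14, beside 53.5% of all. Homozygous arrays all lay above heterozygous arrays at 2 (C2 at 1416051_at and 1457664_x_at), beside 6.75% of all, and below at 1 (Cd55 at 1443906_at), beside 5.68%. Serping1 was 0.40 higher in the homozygous group (SE 0.19, unadjusted limma p 0.0717), with overlap between heterozygous array 2 and homozygous array 2. C1qa differed by -0.00048 (SE 0.28) and C1qc by 0.085 (SE 0.33). The largest difference was at the C1qb probe set 1437726_x_at, 0.71 (SE 0.53). Without heterozygous array 2 and homozygous array 2, which leaves 1 heterozygous array, Serping1 was 0.74 higher in the homozygous group (SE 0.17, limma p 0.00518 unadjusted, 0.932 adjusted), Cfi 0.67 (SE 0.27), C1qc 0.64 (SE 0.38) and C1qa 0.54 (SE 0.30), and that C1qb probe set 1.65 (SE 0.57). With all arrays, the 95% interval of the ratio for C1qa ran from 0.638 to 1.57, so a difference in either direction within it cannot be told from none.

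The rest of the complement system was read from lists of initiators and proteases, terminal components, regulators and receptors. No gene of these 4 lists passed the adjusted limma test or had an unadjusted p under 0.05. The shares were 0% of all probe sets and 0.841% of all genes, and 60.5% of all genes had a homozygous mean above wild type. Among initiators and proteases 6 of 10 measured genes were above 0, with a median difference of 0.0089 beside 0.024 over all genes. C1ra and C1s1, the proteases that Serping1 blocks, were named after their values were seen and stood at 0.031 (SE 0.14) and -0.030 (SE 0.09). All homozygous arrays lay above all wild-type arrays at 2 of the 10 (the lectin Mbl2 at 0.085, SE 0.09, and the scavenger lectin Colec12 at 0.22, SE 0.13), beside 3.25% of all genes, and below them at 1, Mbl1 (-0.098, SE 0.08), beside 1.58%. Terminal components, which form the membrane pore, had 3 of 6 genes above 0 and a median of -0.0079, led by C8g at 0.16 (SE 0.14). The mean level ran from 4.61 to 4.78 for initiators and proteases and from 4.27 to 4.41 for terminal components. Both lay below the array medians of 6.11 to 6.21. Whether a change can be measured at such levels was not tested.

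Regulators other than the named genes had 12 of 16 measured genes above 0, beside 60.5% of all genes, with a median of 0.087. Cd59a, which blocks the membrane pore, had the smallest p, at 0.39 (SE 0.17, unadjusted limma p 0.0514). It read 8.81, 8.92 and 8.56 on the wild-type arrays, against 8.87 and 9.09 with the heterozygous label and 9.48, 8.88 and 9.10 with the homozygous label. The order again had homozygous 1 and 3 and heterozygous 2 at the top, the arrays lowest in Nxnl1. Lens markers were also high on these arrays. They were high on wild-type array 1 as well (7.73), where Cd59a read 8.81. Cpn1 at 0.17 (SE 0.09), Vsig4, a macrophage receptor for C3 fragments, at 0.21 (SE 0.12) and Cr2 at 0.17 (SE 0.11) followed. At 2 of the 16, Cpn1 and Vsig4, the homozygous arrays all lay above wild type, beside 3.25% of all genes, and at 1, Cd55b, near the bottom of the scale, all below (-0.033, SE 0.08), beside 1.58%. Receptors had 4 of 8 genes above 0 and a median of 0.011. Among them Itgam, a subunit of complement receptor 3, was at 0.096 (SE 0.10) and the only 1 of the 8 with all homozygous arrays above wild type, beside 3.25% of all genes, and the anaphylatoxin receptor C5ar1 was at 0.050 (SE 0.09).

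**Figure D4:**
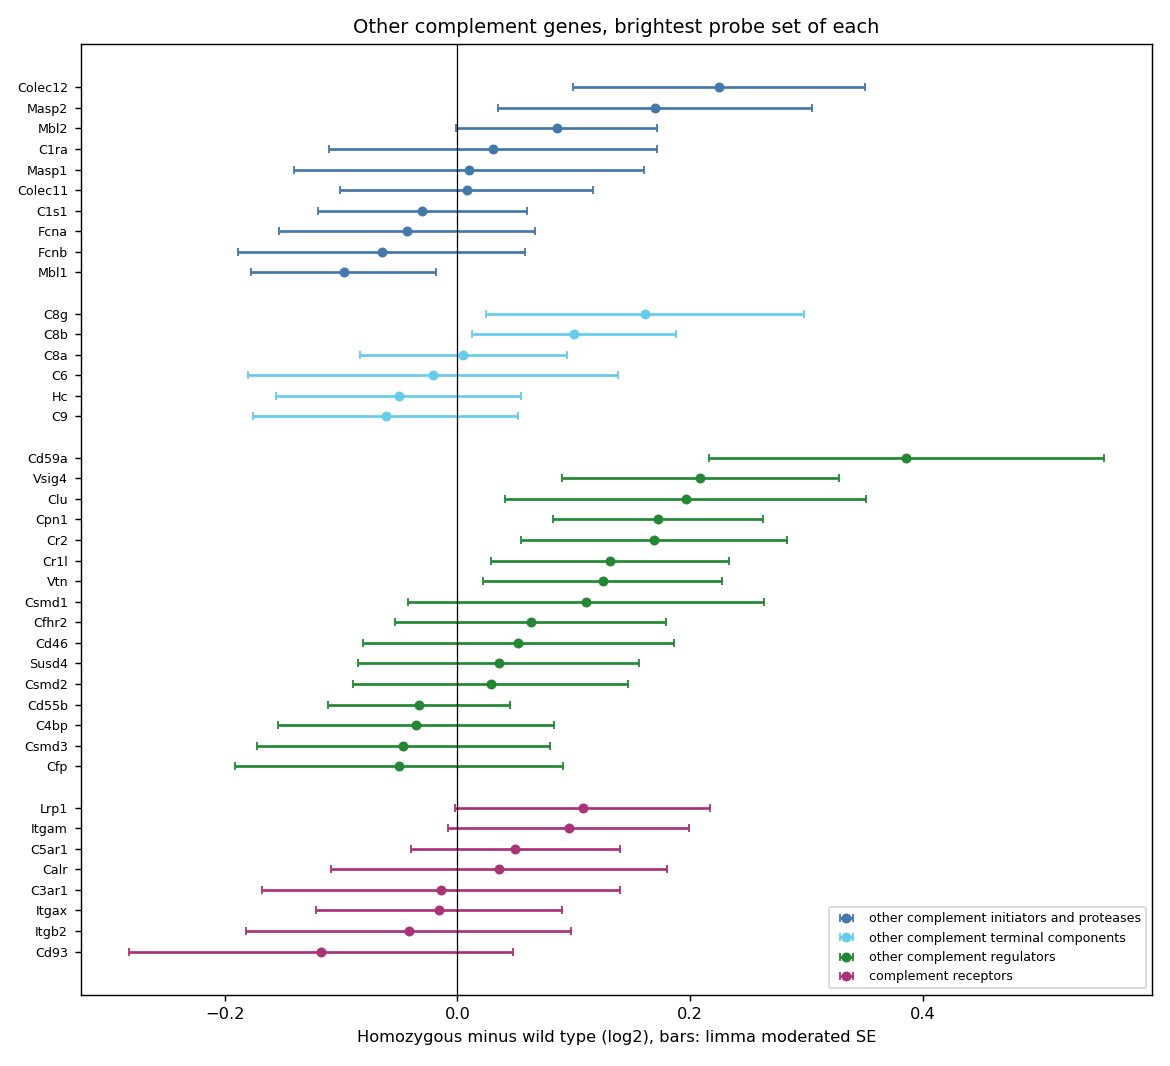
Homozygous minus wild type (log2, horizontal axis) for other complement genes at the brightest probe set of each, in 4 lists. Points are limma estimates and bars their moderated SE; Cd59a at 0.39 is the highest and none passed the test.

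As a description, the genes most like each complement gene over the 8 arrays were sought among 10623 named genes above the median level. The closest to C1qa was the histone variant gene Macroh2a2 (Pearson r = 0.979), which was also the closest to C1qc (r = 0.983). The closest to Serping1 was the translation factor gene Eif3l at r = 0.965, whose whole range over the arrays was from 9.65 to 9.78, followed by Adarb1 at 0.953 and Zan at 0.948. The closest to Cfi were Lrrfip2 at 0.990, Anp32b at 0.989 and Naglu at 0.989, and the closest to the brightest C2 probe set was Tcf4 at 0.997. With 8 arrays and so many genes, values of this size are found for every complement gene searched, the brightest C1qb probe set (Mbd2, r = 0.951) and the low Cd55 (Fam81a, r = 0.973) included.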

How the data were processed

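The deposited table holds a log2 expression value for each probe set on each array. The submitters' processing notes name RMA as the method by which the authors made these log2 values: background correction, quantile normalization across arrays, and a summary over the probes of each set. No source used here gives the RMA version, its settings or which arrays were normalized together. Changes are therefore relative to the bulk of transcripts, and the number of arrays limits the precision.

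Of 45101 probe sets, 64 Affymetrix controls were left out and 45037 tested. The platform annotation gave a single gene symbol to 34945 of these, several to 932 and none to 9160; symbols were brought up to date through gene IDs for 34741, and only probe sets with a single symbol name a gene. Group means were fitted to all 8 arrays with limma 3.58.1 in R 4.3.3 (eBayes, two-sided, 5 residual degrees of freedom), with Benjamini-Hochberg adjustment over all 45037 probe sets and a threshold of 0.05. SE is the moderated standard error. The brightest probe set (highest mean over arrays) stands for a gene. The fit was tested on simulated data.

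All 9 chosen genes were named, with up to 4 genes of smallest p per list, those whose groups did not overlap, and up to 3 genes of highest correlation to each, C1ra and C1s1 being exceptions. The genes, lists and alternatives were chosen with earlier results of these data known. A list's level is the mean of its genes' log2 values. Correlations and permutation tests were exact over arrays. Alternatives changed the normalization, filter, variance model, weights, arrays, replicate block, actin covariate and the choice of probe sets. Promoter sequences came from a RefSeq table (GRCm38.p6), which held 4 of the 9 genes. One gene list and the promoter motifs that go with it are not reported here.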

Additional observations from a re-analysis of the deposited data

How the results depend on the processing

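No complement probe set passed the adjusted limma test in any of the 20 alternative fits (smallest adjusted p 0.284). Over all probe sets the count stayed at 0, except without wild-type array 3, where it was 1 for homozygous and 1 for heterozygous against wild type; that probe set, 1426438_at, has no gene name here and was singled out after its values were seen. Serping1 kept its direction in each comparison, in every fit that gave it a value. Of 462 refitted differences of the 8 genes at their brightest probe sets, 59 changed direction, all with a reported difference within 0.33 of 0. The cause was not tested. For homozygous against wild type, C1qb was 0.16 with array weights, 0.35 as the mean of its probe sets and 0.063 without wild-type array 1 and homozygous array 1; Cd55 was 0.010 and 0.073 in the first and last of these, and C2 was -5.2e-05 as a mean of probe sets. For heterozygous against wild type, C2 was -0.019 with repeated quantile normalization, -0.017 with equal medians, -0.049 with the replicate block, -0.14 as a mean of probe sets and -0.013 without heterozygous array 2 and homozygous array 2, where C1qa was -0.076. C1qb was 0.12 with weights, 0.099 as a mean, 0.010 with the actin covariate and 0.061 without wild-type array 1 and homozygous array 1, Cfi was 0.11 with the actin covariate and Cd55 -0.018 as a mean. For homozygous against heterozygous, C1qa, C1qb and C2 were 0.0082, 0.015 and 0.032 with repeated quantile normalization and 0.044, 0.033 and 0.041 with equal medians. C1qa and C1qb were 0.012 and 0.046 with weights, C1qa and C2 were 0.094 and 0.061 with the replicate block, and C1qb and C2 were 0.25 and 0.14 as means. Without heterozygous array 2 and homozygous array 2, C1qa, C1qb and C2 were 0.54, 0.27 and 0.16. C1qc was -0.20 with the actin covariate, and C1qb and C1qc were 0.0017 and -0.15 without wild-type array 1 and homozygous array 1. With 1 array left out, the differences of homozygous from wild type ran from -0.14 to 0.050 for C1qb, -0.13 to 0.15 for C2, -0.016 to 0.066 for Cfb, -0.089 to 0.42 for Cfi and -0.21 to 0.078 for Cd55. Those of heterozygous from wild type ran from -0.076 to 0.72 for C1qa, -0.28 to 0.22 for C1qb, -0.11 to 0.15 for C2 and -0.0056 to 0.28 for Cd55, and those of homozygous from heterozygous from -0.40 to 0.40 for C1qa, -0.26 to 0.24 for C1qb, -0.28 to 0.45 for C1qc, -0.15 to 0.13 for C2 and -0.14 to 0.0095 for Cfb. A refit that left 1 heterozygous array assumed that it varied like the other groups. With probe sets below the median level left out, only C1qa and C1qb had a value.

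The labels give the groups the same replicate numbers but do not call them pairs, and the numbers were not taken as pairs. Same-numbered arrays of different groups correlated in their deviations from the group means between -0.25 and 0.62. Differently numbered ones ran from -0.64 to 0.52. The deviations of the 2 heterozygous arrays mirror each other by construction, so these correlations cannot decide whether the arrays were paired. With the replicate block 0 probe sets were called in each comparison, and Serping1 was 0.76 above wild type (unadjusted limma p 0.00447).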

Other observations

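One further probe set, 1427632_x_at, is annotated to both Cd55 and Cd55b and was given to neither. It read between 2.74 and 2.97 on the 8 arrays, near the bottom of the scale.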
